A study of Mus musculus with 4 samples.

Results

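The genes that move calcium across the plasma membrane and in and out of intracellular stores were examined in the stria vascularis (SV), the epithelium of the cochlear lateral wall that secretes potassium into the endolymph. The members were 10 genes, found by their symbols in the gene lists of the libraries: the sarco-endoplasmic reticulum pumps (SERCA) Atp2a2 and Atp2a3, the plasma membrane pumps (PMCA) Atp2b1, Atp2b2 and Atp2b4, the Golgi pump (SPCA) Atp2c1, the sodium-calcium exchanger (NCX) Slc8a1, and the inositol trisphosphate receptors (IP3R) Itpr1, Itpr2 and Itpr3. All 10 were listed in each library, among 27998 genes in the cell libraries and 48816 in the nucleus library.

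SV was dissected from CBA/J mice at postnatal day 30 (P30), with no treatment or genetic change compared, and profiled as 3 captures by scRNA-Seq and 1 capture by snRNA-Seq. Each capture was a suspension pooled from several mice, about 12 for cells and about 10 for nuclei per the labels. The sources differ on these numbers, and the study's methods give the first cell capture a smaller pool than the later ones. A p-value over the 3 cell captures therefore measures the spread between suspensions and not between single animals. The cells were released with trypsin and the nuclei by lysis, and the preparation and the sequenced compartment cannot be told apart. The cell captures held 392, 1358 and 1580 barcodes with 2811309, 8113494 and 8340882 unique molecular identifiers (UMIs), each UMI standing for 1 captured transcript, and the nucleus capture held 11057 barcodes with 22332501 UMIs. Captures shared between 0 and 32 barcodes. Mitochondrial transcripts took a median of 38.6% to 45.4% of the UMIs of a cell and 8.30% of those of a nucleus. Levels are given as CPM, the UMIs of a gene relative to all non-mitochondrial UMIs, summed over the barcodes of a type in a capture, and their Poisson intervals (95%) cover counting error only.

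Cell types were read from clusters by marker genes, and each type name below stands for a cluster that is like that type. Of 3154 cells kept, 102 were marginal, 936 intermediate, 38 basal and 59 spindle/root, while 1786 (56.6%) stayed unnamed. Of 9754 nuclei kept, 2596 were marginal, 1478 intermediate, 613 basal and 205 spindle/root. The named types were not free of each other's RNA. Marginal cells carried the intermediate marker genes at a summed 12341 CPM beside 11806 CPM of their own, against 38671 CPM in intermediate cells, and spindle/root cells carried the marginal markers at 9581 CPM. Basal nuclei carried the marginal markers at 4202 CPM and their own at 1804 CPM. Other settings of the clustering gave between 320 and 489 marginal cells.

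Cells keep cytosolic calcium low by pumping it into the endoplasmic reticulum with SERCA, into the Golgi with SPCA, and out of the cell with PMCA and NCX. IP3R are the channels that let the stored calcium out again when phospholipase C makes inositol trisphosphate. Each family has several genes, which differ in affinity, in location in the cell and in tissue. In the inner ear, calcium pumps are best known from hair cells, where loss of the PMCA Atp2b2 causes deafness and imbalance in mice.

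In scRNA-Seq the store and plasma membrane genes divided by SV type. Marginal cells were highest for Itpr1, Itpr2 and Atp2b1, intermediate cells for Atp2c1, and basal cells for Itpr3, whereas spindle/root cells, which differed between clustering settings as described below, carried Itpr2 and Atp2b1 but no Itpr3 UMI. Sums per capture were fitted for 4923 genes in edgeR (quasi-likelihood, capture as a block, Benjamini-Hochberg adjustment), setting each type against the average log level of the remaining 3. Of the 10 members, 6 passed the filter on low counts and were tested, and Atp2a3, Atp2b2, Atp2b4 and Slc8a1 were not. Among those 6, 3 were called higher and 0 lower in marginal cells, where 19.2% and 14.4% of all genes tested were called. In intermediate cells 2 were higher and 3 lower, beside 25.1% and 19.4% of all genes. In basal cells 1 was higher and 2 lower, beside 18.0% and 17.3%. In spindle/root cells 2 were higher and 3 lower, beside 24.3% and 18.4%. Leaving out Itpr3, whose fitted values rest on its zeros in spindle/root cells, the median log2 fold change of the other 5 was 1.63 in marginal, -1.42 in intermediate, 0.09 in basal and -0.30 in spindle/root cells, against medians over all genes of 0.03, 0.06, -0.08 and 0.02.

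**Figure D1:**
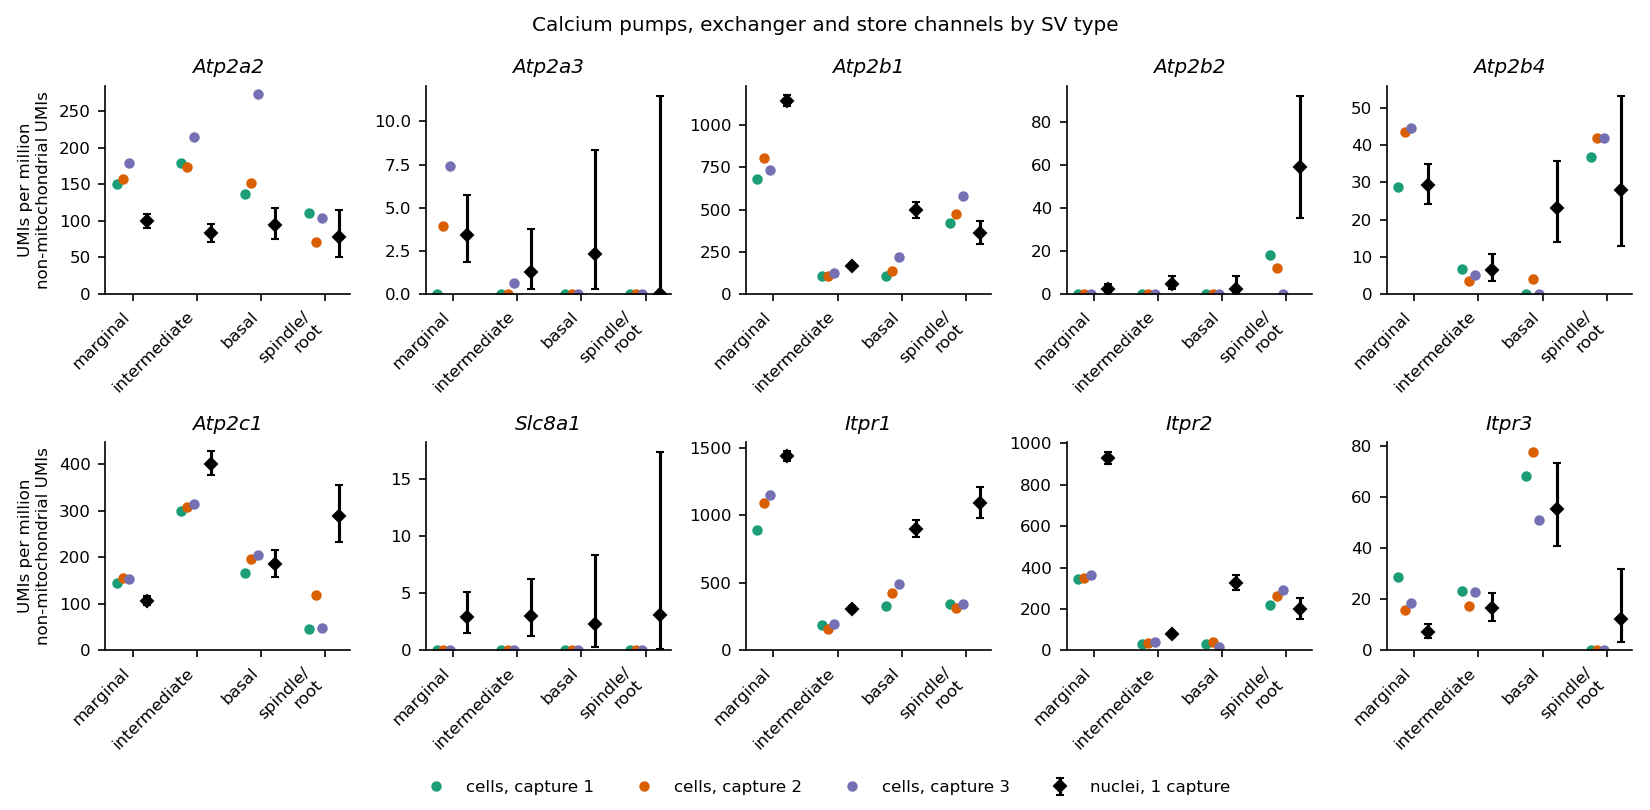
Level of each of the 10 members in CPM (vertical axis, linear, own scale per panel) in marginal, intermediate, basal and spindle/root types; dots are the 3 cell captures and the diamond is the nucleus capture with its 95% Poisson interval. The 3 marginal dots of Itpr1 sit between 891 and 1153 CPM, above every other cell dot of that panel.

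Atp2a2 encodes SERCA2, the housekeeping pump that refills the endoplasmic reticulum (GRCm38, chr5:122453513-122502225, minus strand). Its level in the 3 captures was 151, 157 and 178 CPM in marginal cells, 179, 173 and 215 CPM in intermediate cells and 137, 151 and 273 CPM in basal cells. Spindle/root cells held 110, 71.8 and 105 CPM, below every capture of the other types, while those types overlapped each other. Atp2a2 was higher in intermediate cells by 0.56 ± 0.14 (log2, SE; adjusted p = 0.000424) and lower in spindle/root cells by -0.84 ± 0.23 (adjusted p = 0.00266). The spindle/root call was lost without capture 2 (-0.70, adjusted p = 0.0632). In marginal and basal cells the differences were -0.05 (adjusted p = 0.867) and 0.32 (adjusted p = 0.244).

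Atp2a3 encodes SERCA3, known from blood cells and some epithelia (chr11:72961169-72993044, plus strand). It had 19 UMIs in 3154 cells, and 5 of them lay in B cells (43.1 CPM). Marginal cells held 0, 3.96 and 7.44 CPM (4 UMIs in all), intermediate cells 1 UMI, and basal and spindle/root cells none. Of the UMIs of the SERCA members, Atp2a2 therefore made up 97.8% in marginal cells (mean of 3 captures) and more in the other types.

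Atp2b1 encodes PMCA1, the widely expressed pump of the plasma membrane (chr10:98914406-99026143, plus strand). Marginal cells held 682, 809 and 736 CPM, and spindle/root cells 424, 473 and 578 CPM. Basal cells held 107, 135 and 222 CPM and intermediate cells 108, 105 and 127 CPM. Marginal cells did not overlap spindle/root cells, and spindle/root cells did not overlap basal cells, whereas basal and intermediate cells overlapped. Atp2b1 was higher in marginal cells by 1.68 ± 0.13 (adjusted p = 3.41e-18) and in spindle/root cells by 1.17 ± 0.15 (adjusted p = 1.77e-09), and lower in intermediate cells by -1.61 ± 0.14 (adjusted p = 1.11e-15) and in basal cells by -1.23 ± 0.20 (adjusted p = 5.7e-07). An Atp2b1 UMI was present in 98.0% of marginal cells (median depth 8552 non-mitochondrial UMIs) and 34.3% of intermediate cells (3912), against 10.0% of erythroid cells (9965.5), which served as a level of free RNA. The basal call was lost with 20 principal components (-0.37, adjusted p = 0.0610) and with a minimum of 500 genes per barcode (-0.32, adjusted p = 0.123).

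Atp2b4 encodes PMCA4, which is also the pump of red blood cells (chr1:133699457-133801041, minus strand). It was too low for the test. Marginal cells held 28.7, 43.6 and 44.6 CPM and spindle/root cells 36.8, 41.9 and 41.8 CPM, and both sat above every capture of intermediate cells (6.83, 3.47 and 5.20 CPM) and basal cells (0, 4.09 and 0 CPM). Erythroid cells held 17.0 CPM.

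Atp2b2 encodes PMCA2 (chr6:113743831-114042613, minus strand). It had 5 UMIs in 3154 cells, and 4 of them were in spindle/root cells (18.4, 12.0 and 0 CPM in the 3 captures). Of the UMIs of the PMCA members, Atp2b1 made up 95% in marginal cells, 95.6% in intermediate, 99.0% in basal and 90.5% in spindle/root cells.

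Atp2c1 encodes SPCA1, which loads the Golgi with calcium and manganese (chr9:105403539-105527319, minus strand, with Aste1 and Gm19667 on the opposite strand). Intermediate cells held 299, 307 and 315 CPM, basal cells 166, 196 and 205 CPM, marginal cells 144, 155 and 152 CPM, with spindle/root at 46.0, 120 and 48.8 CPM, and no neighbours in that order overlapped. Atp2c1 was higher in intermediate cells by 1.38 ± 0.14 (adjusted p = 1.04e-13) and lower in spindle/root cells by -1.36 ± 0.25 (adjusted p = 6.5e-06). The spindle/root call was lost at a clustering resolution of 0.4 (-0.82, adjusted p = 0.0585). In marginal and basal cells the differences were -0.35 (adjusted p = 0.138) and 0.34 (adjusted p = 0.225).

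Slc8a1 encodes NCX1, the exchanger of heart and other excitable tissue (chr17:81373105-81738377, minus strand). It had no UMI in 3154 cells, which allows a share of cells with a UMI of up to 0.0951%.

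Itpr1 encodes the most widely studied IP3R, abundant in cerebellar Purkinje cells (chr6:108213096-108551109, plus strand). Its level was 891, 1094 and 1153 CPM in marginal cells, 332, 421 and 495 CPM in basal, 341, 317 and 341 CPM in spindle/root, and 191, 160 and 196 CPM in intermediate cells. Marginal cells stood above all others and intermediate cells below all others, whereas basal and spindle/root cells overlapped. It was higher in marginal cells by 1.63 ± 0.12 (adjusted p = 3.26e-19) and lower in intermediate cells by -1.42 ± 0.13 (adjusted p = 2.79e-15). The basal difference was 0.09 (adjusted p = 0.702). The spindle/root difference was -0.30 (adjusted p = 0.114), and it was called under 6 alternatives, with -0.88 (adjusted p = 0.000451) at a minimum of 500 genes. An Itpr1 UMI was present in 99.0% of marginal, 94.7% of basal, 71.2% of spindle/root and 41.5% of intermediate cells (median depths 8552, 9529.5, 6015 and 3912), against 9.0% of erythroid cells. The nuclear transcript Malat1 moved with the types, at 25360 CPM in marginal, 43826 CPM in spindle/root, 74231 CPM in basal and 85773 CPM in intermediate cells, and its part in the order of Itpr1 was not tested.

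Itpr2 encodes the IP3R of highest affinity for its ligand (chr6:146108299-146502223, minus strand). Marginal cells held 345, 351 and 364 CPM, spindle/root cells 221, 263 and 293 CPM, intermediate cells 28.7, 34.7 and 39.7 CPM and basal cells 29.3, 40.9 and 17.1 CPM. Only the lowest pair, intermediate and basal cells, overlapped. It was higher in marginal cells by 2.13 ± 0.16 (adjusted p = 2.06e-18) and in spindle/root cells by 1.86 ± 0.20 (adjusted p = 6.63e-12), and lower in intermediate cells by -1.95 ± 0.23 (adjusted p = 4.44e-11) and in basal cells by -2.04 ± 0.32 (adjusted p = 2.14e-07). The basal call was lost with 20 principal components (-0.74, adjusted p = 0.0561) and with a minimum of 500 genes (-0.77, adjusted p = 0.0554).

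Itpr3 encodes the IP3R known from secretory epithelia and taste cells (chr17:27057304-27122223, plus strand, with Itpr3os on the opposite strand). Basal cells held 68.3, 77.7 and 51.2 CPM, above the 23.2, 17.4 and 22.8 CPM of intermediate cells and the 28.7, 15.9 and 18.6 CPM of marginal cells, which overlapped each other. Spindle/root cells had no Itpr3 UMI in any capture. The mean of basal cells was 3.11 times that of intermediate cells, 3.12 times that of marginal cells and at least 9.19-fold higher than in spindle/root cells, taking a floor of 3 UMIs over the group (7.16 CPM). Itpr3 was called higher in basal cells (adjusted p = 9.11e-07) and lower in spindle/root cells (adjusted p = 0.000312), with fitted values that depend on the zeros and are not given as sizes. In marginal and intermediate cells it was not called (adjusted p = 0.353 and 0.0862).

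The bases just before the start sites of Itpr2 and Itpr3 are shown because these receptors had opposite orders between basal and spindle/root cells at the main clustering. Each run is the 250 bases upstream of the RefSeq start on GRCm38.p6, 5′ to 3′, for Itpr2 chr6:146502224-146502473 (minus strand) and for Itpr3 chr17:27057054-27057303 (plus strand), and capitals mark the GC box letters GGGCGG on either strand.
Itpr2: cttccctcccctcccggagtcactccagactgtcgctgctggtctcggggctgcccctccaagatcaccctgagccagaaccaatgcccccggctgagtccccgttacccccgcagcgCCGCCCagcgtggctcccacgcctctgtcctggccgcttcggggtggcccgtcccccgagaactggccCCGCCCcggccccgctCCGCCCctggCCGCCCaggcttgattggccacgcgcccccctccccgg
Itpr3: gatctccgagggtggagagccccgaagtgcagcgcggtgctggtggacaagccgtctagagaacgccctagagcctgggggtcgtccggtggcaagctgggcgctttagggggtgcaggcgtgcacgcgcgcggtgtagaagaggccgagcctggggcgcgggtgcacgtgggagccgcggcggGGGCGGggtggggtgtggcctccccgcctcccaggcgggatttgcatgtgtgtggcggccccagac
Itpr2 held 4 matches and Itpr3 held 1, and 32.7% of 32851 RefSeq promoters held at least 1. The letters AAGGTCA, read by oestrogen-related receptors, were in no member's window and in 4.08% of all promoters, counting both strands. A match is a description of these letters and no evidence of binding. Of the 10 members, 8 had a RefSeq row, and Atp2a2 and Itpr1 had none.

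Isoform use was read as the share of a family's UMIs in each capture, where a family stands for its genes among the members only. Itpr1 gave 73.5% ± 2.61 of the IP3R UMIs of marginal cells (SD, n = 3), 76.6% ± 1.77 in intermediate, 81.1% ± 5.92 in basal and 56.4% ± 3.72 in spindle/root cells. Itpr2 gave 25.0% ± 1.97, 14.5% ± 2.41, 5.81% ± 2.44 and 43.6% ± 3.72 in the same order, and no 2 types overlapped in its share. The spindle/root value was not stable, at 9.72% with resolution 0.4 and 12.2% with 20 principal components or a minimum of 500 genes, where marginal cells held 20.3% to 20.6%, so the order of these types was then the opposite. Itpr3 gave 1.52% in marginal, 8.85% in intermediate, 13.1% in basal and 0% in spindle/root cells. With 3 captures a type, a two-sided exact permutation test cannot go below p = 0.1 (0.1154 after adjustment over 30 pairs of types and genes), so no pair could pass 0.05. The pairs that overlapped were intermediate and basal cells for Itpr1 (exact permutation p = 0.3) and for Itpr3 (exact permutation p = 0.2), and marginal and intermediate cells for Atp2b1 and for Atp2b4 (exact permutation p = 0.6 for each). UMIs are counted once per transcript and carry no length scaling; per kilobase of exon, the shares of Itpr1 were 69.4%, 67.7%, 68.5% and 50.5% in marginal, intermediate, basal and spindle/root cells, those of Itpr2 were 28.1%, 16.6%, 7.15% and 49.5%, and those of Itpr3 were 2.43%, 15.7%, 24.3% and 0%.

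**Figure D2:**
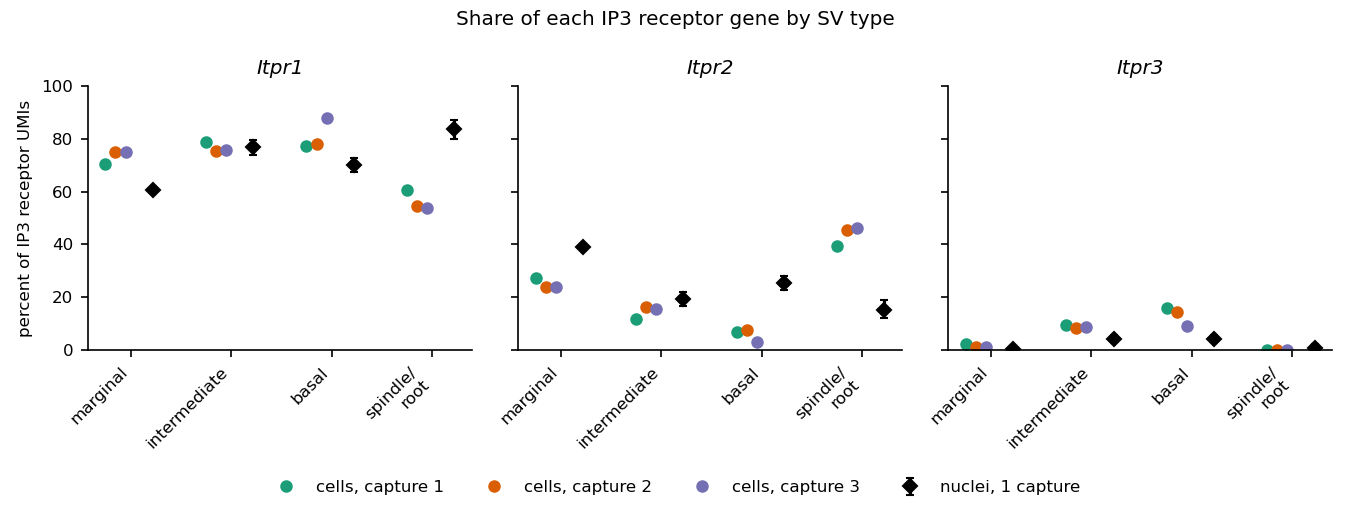
Share of the IP3R UMIs (percent, vertical axis) taken by Itpr1, Itpr2 and Itpr3 in each SV type, for the 3 cell captures (dots) and the nucleus capture (diamond, exact 95% binomial interval). Itpr2 takes 43.6% in spindle/root cells and 5.81% in basal cells, and in nuclei 15.3% and 25.4%.

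The spindle/root type was made of unlike clusters, and its values for Atp2b1 and Itpr2 rested on one of them. A cluster of 44 cells led by P2rx2 and Anxa1 held Itpr2 at 337 CPM, Atp2b1 at 593 CPM, Itpr1 at 404 CPM and Atp2b4 at 53.6 CPM, with no UMI of Atp2b2. The same 44 cells carried all 10 of the marginal markers, at 12575 CPM, near the 11806 CPM of marginal cells, and their part in these levels was not tested. A cluster of 15 cells led by Epyc, with the marginal markers at 274 CPM, held Itpr2 at 29.4 CPM, Atp2b1 at 196 CPM, Itpr1 at 108 CPM and Atp2b2 at 39.2 CPM, with no UMI of Atp2b4. Neither cluster had an Itpr3 UMI. Where other settings left 20 to 26 spindle/root cells in 2 captures, the differences of spindle/root cells turned to -0.30, -0.17 and -0.25 for Atp2b1 and -0.84, -1.03 and -1.06 for Itpr2 (resolution 0.4, 20 principal components and a minimum of 500 genes), and none was called. The direction of both genes in spindle/root cells therefore changed with the clustering.

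In nuclei the spindle/root type also fell into separate clusters, and these differed in the less abundant PMCA members. The 106 nuclei of the cluster led by Epyc and Lgr5 held Atp2b2 at 106 CPM (19 UMIs) and no UMI of Atp2b4, while the 99 nuclei of the cluster led by Slc26a4 and P2rx2 held Atp2b4 at 63.6 CPM (9 UMIs) and no UMI of Atp2b2. Lgr5 is known from supporting cells of the organ of Corti, and Slc26a4 encodes pendrin, an anion exchanger that secretes bicarbonate. Atp2b1, the highest PMCA member in both clusters, was alike in them, at 350 CPM (63 UMIs) and 374 CPM (53 UMIs). Itpr1 stood at 1034 and 1166 CPM and Itpr2 at 222 and 170 CPM in these clusters. With 1 nucleus library there was no test. The Epyc-led clusters of both preparations held Atp2b2 and not Atp2b4.

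Cells and nuclei were then set side by side within a type, as ratios of CPM without a test, since the nuclei came from 1 capture. A change was counted past 2-fold for genes with enough UMIs. The total behind a CPM included the nuclear transcript Malat1, whose share differed between preparations. In barcodes with intermediate RNA above the Malat1 limits given below, it stood at 78436 CPM in cells and 250962 CPM in nuclei. Whether intronic reads were counted for nuclei was not given, and the gene lists of the preparations differed. Itpr1 and Itpr2, which span 338 and 394 kb of the genome, were the longest of the counted members. The part of Malat1, of intron counting and of gene length in these ratios and counts was not tested. In marginal nuclei 1 of 7 counted members was at least 2-fold higher (Itpr2) and 1 lower (Itpr3), beside 16.3% and 28.9% of all genes. In intermediate nuclei 1 was higher (Itpr2) and 1 lower (Atp2a2) of 7, beside 20.4% and 22.3%. In basal nuclei 3 of 6 were higher (Itpr2, Atp2b1 and Itpr1) and 0 lower, beside 13.1% and 27.6%, and in spindle/root nuclei 2 of 5 were higher (Atp2c1 and Itpr1) and 0 lower, beside 24.5% and 20.1%. The median log2 ratio of the counted members was -0.41, 0.39, 0.54 and -0.30 in the 4 types, and that of all genes -0.31, -0.12, -0.38 and 0.10.

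Itpr1 was higher in nuclei than in every cell capture of the same type. Nuclei held 1439 CPM in marginal, 308 CPM in intermediate, 899 CPM in basal and 1092 CPM in spindle/root types, which was 1.38, 1.69, 2.16 and 3.28 times the cell mean. Itpr2 in nuclei was 928, 77.03, 326 and 199 CPM, or 2.63, 2.24, 11.2 and 0.769 times the cell mean, and its 95% interval left the range of the cell captures in every type but spindle/root. Erythroid nuclei, as a level of free RNA, had an Itpr1 UMI in 32.1% of barcodes at a median depth of 5192, whereas marginal, intermediate, basal and spindle/root nuclei had one in 83.5%, 30.4%, 61.2% and 72.2% at median depths of 1342, 1364, 1258 and 1338. The share in intermediate nuclei was below that of erythroid nuclei, which were deeper, and is not read as expression on its own. Relative to depth the order was the opposite. Intermediate nuclei held Itpr1 at 308 CPM (95% interval 286 to 332) and erythroid nuclei at 77.8 CPM (67.5 to 89.3).

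The 11.2-fold gap of Itpr2 in basal types was smaller with 20 principal components, at a log2 ratio of 2.38 against 3.49, and that of Atp2b1 then stood at 0.89, under 2-fold. Basal nuclei carried more marginal RNA than basal cells. All 10 marginal markers were present in basal nuclei, at 4202 CPM in sum and 444 CPM for Kcne1, the potassium channel subunit of marginal cells, while basal cells carried 102 to 176 CPM in sum and 24.7 CPM of Kcne1. The part of these transcripts in the basal ratios of Itpr2, Atp2b1 and Itpr1 was not tested. Itpr3, which marginal nuclei held at 7.07 CPM, stood at 55.3 CPM in basal nuclei (95% interval 40.8 to 73.3) beside 51.2 to 77.7 CPM in basal cells. Basal types were highest for Itpr3 in both preparations. Spindle/root nuclei, unlike spindle/root cells, held Itpr3 UMIs (4, at 12.4 CPM).

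The pumps of the stores went other ways. Atp2a2 was lower in nuclei in each type, at 99.3, 83.1, 94.4 and 77.8 CPM in marginal, intermediate, basal and spindle/root nuclei, which was 0.613, 0.440, 0.505 and 0.814 times the cell mean, and its interval overlapped the cell captures in the spindle/root type. Atp2c1 was 107, 401, 185 and 289 CPM, or 0.710, 1.31, 0.981 and 4.05 times the cell mean, and intermediate nuclei were highest as intermediate cells were. Atp2b1 was 1145, 168, 496 and 361 CPM, with marginal nuclei highest as marginal cells were. Atp2b4 was 29.3, 6.49, 23.0 and 28.0 CPM, beside 27.6 CPM in erythroid nuclei.

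**Figure D3:**
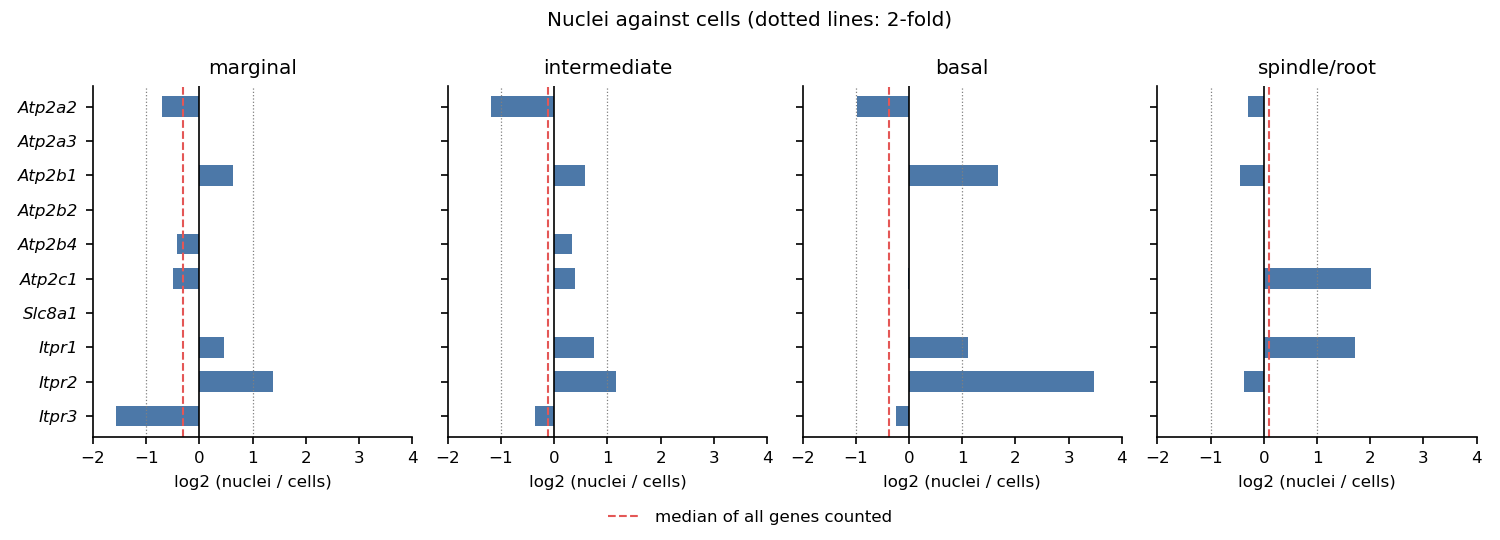
Log2 ratio of the nucleus CPM to the mean CPM of the 3 cell captures for each counted member (bars) in the 4 SV types; dotted lines mark 2-fold and the dashed line the median of all genes in that type. The bar of Itpr2 in the basal type reaches 3.49, and those of Atp2a2 lie below 0 in every type.

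The receptor shares of nuclei gave another order of types than those of cells. Itpr1 took 60.6% of the IP3R UMIs in marginal nuclei, 76.7% in intermediate, 70.2% in basal and 83.8% in spindle/root nuclei, and Itpr2 took 39.1%, 19.2%, 25.4% and 15.3%. Spindle/root had the highest Itpr2 share among cells at the main clustering, but not at the settings that gave 9.72% and 12.2%. Among nuclei its share had the lowest value, with an exact binomial interval (12.0% to 19.1%) that overlapped that of intermediate nuclei (16.7% to 21.9%). The spindle/root cells were 44 of the cluster led by P2rx2 and Anxa1 and 15 of the Epyc-led cluster. The nuclei were 99 of the cluster led by Slc26a4 and P2rx2 and 106 of that led by Epyc and Lgr5. The mix of clusters therefore differed between the preparations, and its part in these shares was not tested. Itpr1 and Itpr2 had 128 and 107 UMIs in those 44 cells, and 165 and 24 UMIs in those 99 nuclei. Itpr3 took 0.298%, 4.09%, 4.32% and 0.955% in marginal, intermediate, basal and spindle/root nuclei. The UMIs of the PMCA members in spindle/root nuclei were 80.6% Atp2b1, 13.2% Atp2b2 and 6.25% Atp2b4, where other SV nuclei had at most 2.65% Atp2b2.

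The members that were nearly absent from cells, Slc8a1, Atp2a3 and Atp2b2, had their highest nucleus CPM in classes outside the 4 SV types. Slc8a1 had 134 UMIs in 9754 nuclei, and 77 of them lay in 40 of the 89 macrophage nuclei, at 285 CPM (95% interval 225 to 356), whereas marginal nuclei held 2.93 CPM and intermediate nuclei 3.03 CPM. Atp2a3 had 55 UMIs, of which 27 lay in B cell nuclei at 67.0 CPM (44.1 to 97.5), and marginal nuclei held 3.41 CPM. Atp2b2 had 89 UMIs, of which 31 lay in 26 of the 99 Reissner's membrane nuclei at 245 CPM (166 to 347), and spindle/root nuclei held 59.1 CPM (35.6 to 92.3). Atp2b4, which had 136 UMIs in cells, had 306 UMIs in nuclei, with 120 in marginal (29.3 CPM) and 72 in erythroid nuclei (27.6 CPM). Each nucleus value is from 1 library, and each class was named from its markers.

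**Figure D4:**
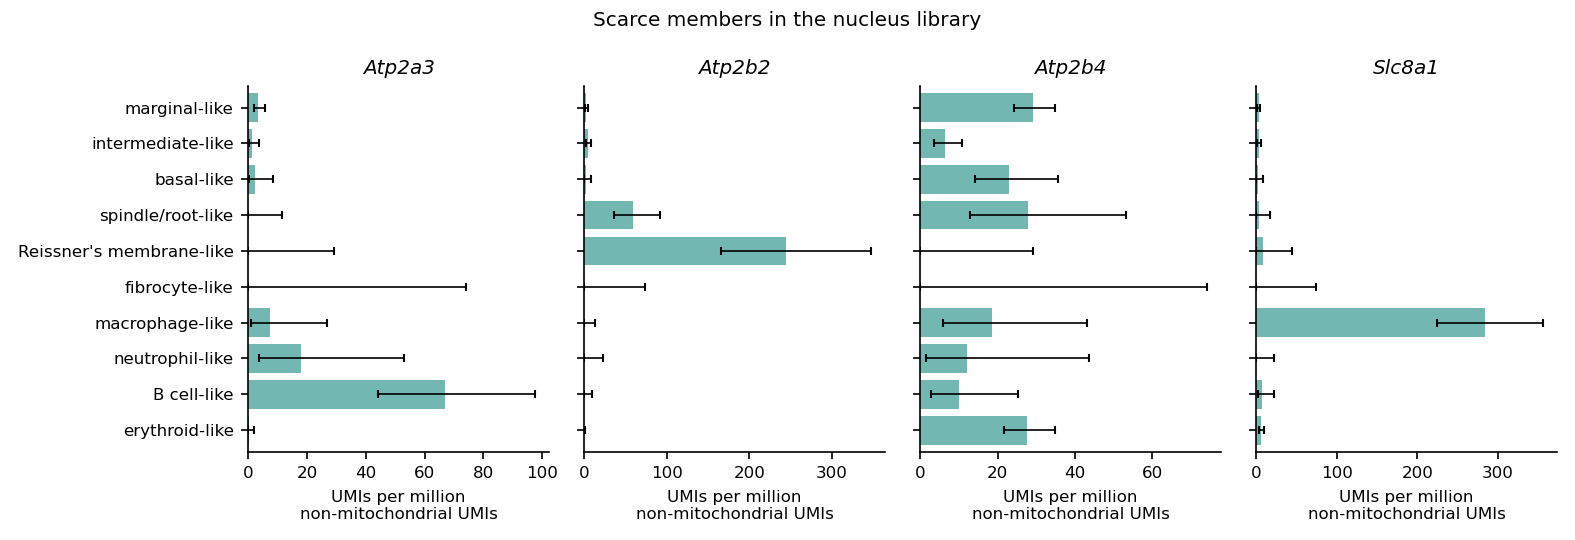
CPM of Atp2a3, Atp2b2, Atp2b4 and Slc8a1 in each named class of nuclei (1 capture, 95% Poisson intervals). Slc8a1 reaches 285 CPM in macrophage nuclei and Atp2b2 245 CPM in Reissner's membrane nuclei.

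Many cell barcodes held almost no Malat1, a transcript kept in the nucleus, and Itpr1 was examined in them. Barcodes fell into low and other classes at a limit of 0.850% of the non-mitochondrial UMIs, set by Otsu's method, which put 1596 of 3188 barcodes in the low class and 72 within 0.1 (log10) of the limit. Most low barcodes were unnamed, so barcodes were split by the RNA they carried, not by cluster, and the 34 called doublets stayed in (6 low and 28 other). A barcode counted as marginal RNA when its marginal markers reached at least 0.1 of their level in marginal cells and at least 3 times the corresponding intermediate value, and as intermediate RNA by the converse rule. Marginal RNA held 119 low and 97 other barcodes, intermediate RNA 943 and 1166, and 534 and 329 fell in neither class.

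Itpr1 was higher in low-Malat1 barcodes of both RNA classes when all barcodes of a class were summed. In marginal RNA the 3 captures held 899, 1689 and 1703 CPM in the low class and 711, 993 and 745 CPM in the other class, overlapping only through capture 1, and each capture was higher in its low class. The difference was 0.82 ± 0.17 (log2, SE; edgeR with the capture as a block, adjusted p = 0.000655), 145th by p among 2538 genes tested. This call was lost with DESeq2 (0.72, adjusted p = 0.159), without capture 2 (0.80, adjusted p = 0.102) and without capture 3 (0.58, adjusted p = 0.0985). In intermediate RNA the low class held 646, 410 and 557 CPM and the other class 276, 279 and 273 CPM, without overlap, and the difference was 1.17 ± 0.10 (adjusted p = 1.38e-29), 118th of 7551 genes. It was called in 18 of 20 alternatives, and the others, which split the barcodes by cluster name, are given next.

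The named types were unevenly spread over the Malat1 classes, and the Itpr1 difference moved with them. In marginal RNA 37 of the 97 other barcodes were named spindle/root, with Itpr1 at 417 CPM, against 2 of the 119 low barcodes, while 49 other barcodes were named marginal, with Itpr1 at 1163 CPM, and 108 low barcodes were unnamed, with 1722 CPM. Without barcodes named as another type, the difference was 0.51 ± 0.12 (edgeR, adjusted p = 0.00302), smaller and still called. The other class of capture 1 was left with 4 barcodes and out of the fit. That difference still set mostly unnamed low barcodes against mostly named marginal ones. Named marginal barcodes held 1120 CPM (3 low) and 1209 CPM (other) in capture 2. In capture 3 they held 1667 CPM (6 low) and 1130 CPM (other), and capture 1 had no low one. No fit was made within named or unnamed barcodes of marginal RNA. In intermediate RNA 906 of the 1166 other barcodes were named intermediate, with Itpr1 at 177 CPM, and 908 of the 943 low barcodes were unnamed, with 542 CPM. Among unnamed barcodes alone, the low class held 689, 431 and 581 CPM and the 189 other barcodes 545, 610 and 584 CPM, which overlapped, and Itpr1 was not called (0.18 ± 0.11, adjusted p = 0.215). Among named intermediate cells alone, the 27 low cells held 284, 169 and 377 CPM and the 906 other cells 188, 159 and 192 CPM, and Itpr1 was not called either (0.33 ± 0.36, adjusted p = 0.913). The difference in intermediate RNA was therefore found between barcodes that also differed in whether a cluster name could be given, and was not called within either kind. These splits were added after seeing the data.

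Of 5 members tested in marginal RNA, 1 was higher in the low class (Itpr1) and 0 lower, where 11.3% of all genes tested were higher and 12.9% lower. Of 6 tested in intermediate RNA, 2 were higher (Itpr1 and Itpr2) and 1 lower (Atp2c1), beside 20.4% and 17.6%. In intermediate RNA Itpr2 held 60.1, 63.5 and 70.4 CPM in the low class and 32.9, 47.8 and 49.3 CPM in the other, a difference of 0.79 ± 0.21 (adjusted p = 0.000888), and Atp2c1 held 147, 183 and 192 CPM against 277, 288 and 300 CPM, a difference of -0.45 ± 0.12 (adjusted p = 0.00106). DESeq2 called neither (adjusted p = 0.0754 for Itpr2 and 0.0609 for Atp2c1), and Itpr2 was not called at an RNA class ratio of 5 (0.56, adjusted p = 0.0609) or among unnamed barcodes alone (0.01, adjusted p = 0.979). Atp2c1 was called among unnamed barcodes alone (-0.46, adjusted p = 0.0138), as was Atp2b1 (-0.44, adjusted p = 0.0262), which over all barcodes stood at 0.25 without a call. In marginal RNA Itpr2 held 337, 321 and 330 CPM in the low class and 382, 430 and 413 CPM in the other (-0.39, adjusted p = 0.25), so the captures of the low class lay below those of the other without a call.

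Depth, mitochondrial share and marker RNA moved with the Malat1 class. Low barcodes had a median of 1969 non-mitochondrial UMIs in marginal RNA, against 7262 in the other class, and 1093 against 4100 in intermediate RNA. Their median mitochondrial share was 50.8% against 24.6%, and 62.8% against 33.9%. In marginal RNA 7 of 9 marginal markers tested were lower in the low class and 0 higher. The marginal markers summed to 6857 to 8933 CPM in the low class and 12824 to 13900 CPM in the other. The spindle/root markers summed to 39.2 to 56.2 CPM in that low class and 726 to 2298 CPM in the other, and the basal markers to 112 to 235 CPM and 684 to 1773 CPM. In intermediate RNA 1 of 5 marginal markers tested was higher (sums 358 to 590 CPM against 332 to 441 CPM), and 7 of 9 intermediate markers were lower and 1 higher. The basal markers there summed to 80.7 to 237 CPM in the low class and 461 to 960 CPM in the other. The part of mitochondrial share and of these markers in the Itpr1 result was not tested beyond the removal of other named types. With each barcode thinned to 1000 UMIs, so that depth was equal, Itpr1 differed by 0.71 ± 0.24 (adjusted p = 0.0214) in marginal RNA and 1.03 ± 0.14 (adjusted p = 6.05e-10) in intermediate RNA. At that depth an Itpr1 UMI was present in 72.9% of 96 low barcodes and 49.5% of 97 other barcodes of marginal RNA, and in 34.7% of 519 and 19.9% of 1142 of intermediate RNA. Too shallow to be thinned were 23 low barcodes of marginal RNA and 424 low and 24 other barcodes of intermediate RNA. The unthinned shares were 86.6% and 86.6%, and 37.8% and 49.0%.

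Along bins of the Malat1 share, Itpr1 was lower above 1% Malat1 than below it in marginal RNA. Among bins of at least 20 barcodes it was 1766 CPM under 0.05% Malat1 (68 barcodes), 1498 CPM from 0.05% to 0.1% (22), 1039 CPM from 1% to 2% (31) and 865 CPM from 2% to 5% (46). The smaller bins from 0.1% to 1% (14, 11 and 6 barcodes) held 1464, 1567 and 1421 CPM, so the order was not steady there. In intermediate RNA Itpr1 was 507 CPM under 0.05% (546 barcodes), 324 CPM from 0.2% to 0.5% (83) and 732 CPM from 0.5% to 1% (33). It was 447, 355, 268 and 104 CPM in the bins from 1% upward, so the order was not steady below 1%. These bins hold all barcodes of a class, the named spindle/root cells of marginal RNA included, and carry no test.

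**Figure D5:**
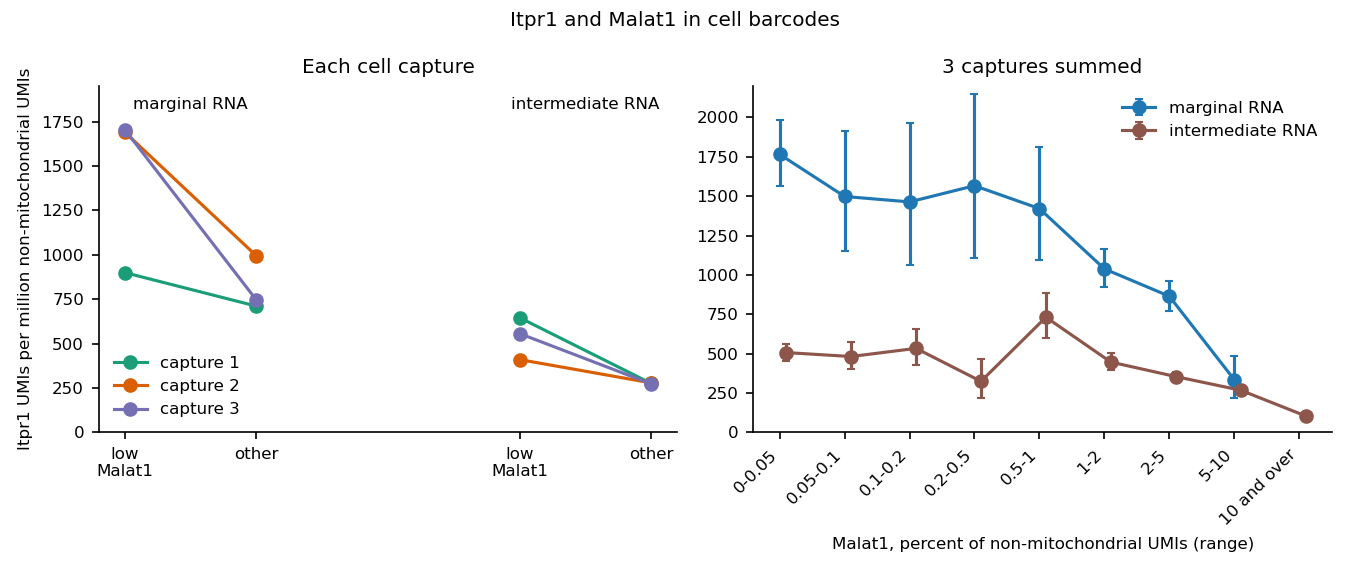
Left, Itpr1 in CPM in low-Malat1 and other barcodes of marginal and intermediate RNA, with 1 line per cell capture; right, Itpr1 in CPM (95% Poisson interval) by the Malat1 share of the barcode (percent of non-mitochondrial UMIs), bins of under 6 barcodes left out. The low class lies above the other class in each of the 3 captures of both RNA classes.

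In nuclei, where the limit was 3.71%, the low-Malat1 class held Itpr1 at 1122 CPM in marginal RNA against 1354 CPM in the other class, the opposite order to cells. In intermediate RNA the low class held 1357 CPM against 334 CPM. Those low intermediate nuclei had a median mitochondrial share of 46.7%, against 1.91% in the other class. Their median marginal marker level was 11.9% of that of marginal nuclei, against 6.85%. Kcne1 stood at 485 against 213 CPM, while Kcnq1 was lower, at 62.5 against 109 CPM. The part of these in the Itpr1 value was not tested. Nuclei gave no test.

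Around the members, 10 lists of calcium genes held 69 listed genes, of which 29 were tested. Marginal cells had 8 of the 29 higher and 5 lower, intermediate cells 8 against 5, basal cells 3 against 7, and spindle/root cells 10 against 9. Over all genes tested the shares called higher and lower were 19.2% and 14.4%, 25.1% and 19.4%, 18.0% and 17.3%, and 24.3% and 18.4% in these types. Among other pumps and exchangers, Atp2c2, the second Golgi pump, was higher in marginal cells (97.0 ± 15.5 CPM) and spindle/root cells (73.7 ± 4.04 CPM) than in intermediate (1.88 ± 1.95 CPM) and basal cells (1.36 ± 2.36 CPM; SD, n = 3), the types in which Atp2c1 was highest. In nuclei Atp2c2 stood at 215 CPM in marginal, 70.2 CPM in basal, 40.4 CPM in spindle/root and 13.8 CPM in intermediate types. Slc24a2, a potassium-dependent sodium-calcium exchanger, was higher in intermediate cells by 2.61 (log2), at 101.6 ± 11.5 CPM, and stood at 633 CPM in intermediate nuclei. The buffers of the endoplasmic reticulum, Canx, Calr and Hspa5, had their highest mean level in marginal cells (775, 720 and 580 CPM), with 604, 645 and 523 CPM in intermediate cells. Canx and Calr were called higher in marginal cells, all 3 in intermediate cells, and all 3 were called lower in spindle/root cells. Nuclei gave another order, with spindle/root nuclei highest for all 3 (286, 289 and 320 CPM). Marginal nuclei held 263, 228 and 265 CPM. Of the channels, Mcoln3, of endosomes and lysosomes, was higher in marginal cells by 2.38 and in spindle/root cells by 2.10 and lower in basal cells by -3.72. Trpv4, a cation channel that responds to cell swelling, was higher in marginal cells by 1.52 and in spindle/root cells by 1.95 and lower in intermediate cells by -4.03. Of the makers and regulators of inositol trisphosphate, Ahcyl2, a relative of the IP3R-binding protein IRBIT, was higher in basal cells by 2.41, at 442.8 ± 60.9 CPM, and Itpkb, a kinase that consumes inositol trisphosphate, was higher in intermediate cells by 1.33. All these differences in cells passed an adjusted p of 0.05 in edgeR's test over 4923 genes, and nuclei had no test.

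The genes most like each member over the 12 sums of type and capture were found by Pearson correlation of log2(CPM + 1), as a description, since the sums share 3 captures and differ in depth. They were Dsp (r = 0.966), Ppp1r21 and Cyfip2 for Itpr1, Gpx3 (0.989), Mt3 and Atp1b2 for Itpr2, and Utrn (0.961), Cenpb and Rab11fip5 for Itpr3. For Atp2b1 they were Abca2 (0.981), Gas2 and Eif4a2, for Atp2c1 Gm10639 (0.981), Cdh2 and Scly, and for Atp2a2 Serinc1 (0.956), Atp6v1b2 and Serpinh1.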

How the data were processed

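Single-cell and single-nucleus libraries were made with 10x Genomics 3′ chemistry. The authors deposited UMI counts per gene and barcode, made with Cell Ranger 2.0.0 and mm10 per the submitters' processing notes. Whether intronic reads were counted for nuclei was not given in the sources used here, and the nucleus library listed more genes (48816 against 27998, with 27873 in both).

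Barcodes with under 200 genes (14, 29 and 99 in the cell captures and 356 in nuclei) and doublets called with scrublet (scanpy 1.11.5) at an assumed 0.8% per 1000 barcodes were removed, which were 1, 14 and 19 in the cell captures and 947 in nuclei. That rate fixed how many of the highest-scoring barcodes were marked, so these numbers follow the capture sizes and few cells were marked. The Malat1 classes kept the called doublets, for 3188 cell barcodes in place of 3154. Cells and nuclei were clustered apart with Seurat 5.3.0 (2000 variable genes, 40 and 42 principal components kept by JackStraw, resolution 0.8). Clusters were named from 105 markers of 16 classes, where at least 3 markers had to be raised 2-fold or more, and mixed clusters were split once. The members, the gene lists and some markers were chosen with earlier results of these data known, and the naming rule was set after clusters and the members' levels had been seen.

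Counts were summed per type and capture (at least 5 cells a sum), without mitochondrial genes. Types and low-Malat1 classes were compared with edgeR 4.0.16 (TMM scaling, quasi-likelihood F test, capture as a block) with Benjamini-Hochberg adjustment over all genes tested. The captures pair the sums because the types of a capture come from the same suspension. Nuclei had 1 capture and no test, and their values carry exact Poisson intervals. Isoform shares were compared by exact permutation tests that did not pair the types of a capture. On simulated counts the marginal fit recovered 80 of 92 genes changed 2-fold and 82 of 83 changed 4-fold, with 7 false calls among 169 (4111 genes). The low-Malat1 fit recovered 40 of 77 and 86 of 88 in marginal RNA (2271 genes), and 80 of 103 and 88 of 90 in intermediate RNA (7210 genes).

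The genes named beside the members were those called in any type, at most 4 a list with the smallest adjusted p first, and the 3 genes most like each member. Alternatives covered DESeq2 1.42.0, scaling, filters, clustering settings, doublets, the Malat1 limit and each capture left out. The isoform share alternatives, the basal parent cluster, the removal of doublets from the Malat1 classes, their splits by cluster name, and the sums of markers by type were added after seeing the data. R 4.3.3 and Python 3.11.15 were used. Gene positions are from GENCODE on GRCm38. Itprip and Mcub, of the calcium lists, were not analysed here.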

Additional observations from a re-analysis of the deposited data

Results flagged for a closer look

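Itpr2 was flagged by a rule that asked for opposite directions with Malat1 in every capture of the 2 RNA classes. The 3 of 3 below follows from that rule and adds no evidence. The low-Malat1 class minus the other class was -78.8 CPM in marginal RNA (mean over captures, lower in 3 of 3) and 21.3 CPM in intermediate RNA (higher in 3 of 3), and the difference between these was not tested. The edgeR fit did not call Itpr2 in marginal RNA, and DESeq2 did not call it in intermediate RNA. Among unnamed barcodes of intermediate RNA alone, the low class did not pass the test for Itpr2.

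Signals stood out in nuclei outside the 4 SV types, which entered no comparison. Slc8a1 reached 285 CPM in macrophage-like nuclei, where no cell of any type held a UMI. Erythroid-like nuclei, used above as a level of free RNA, did not stand out for Slc8a1. They held 5.37 CPM, below the 9.08 CPM of all kept nuclei. Atp2a3 reached 67.0 CPM in B cell-like nuclei. Atp2b2 reached 245 CPM in Reissner's membrane-like nuclei. All are values of 1 library.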

How the results depend on the processing

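Of 20 calls of members, 10 were kept under every alternative run, which were all marginal and intermediate calls by type and both Itpr3 calls. The Itpr3 calls had 14 alternatives and the other calls by type 15, since Itpr3 was not tested without capture 2. That capture held 19 of the 29 Itpr3 UMIs of basal cells. Itpr1 in low-Malat1 barcodes of intermediate RNA was not called among unnamed barcodes (0.18) or named intermediate cells (0.33) alone. Without the replicate block on capture, Itpr1 differed by 1.63 in marginal cells and by 0.85 (marginal RNA) and 1.198 (intermediate RNA) in low-Malat1 barcodes, and no call of a member changed. No paired analysis was possible because, for cells against nuclei, the suspensions were separate. Dropping TMM scaling moved the median of all genes by 0.238 in marginal cells, -0.122 in intermediate cells and -0.268 in low-Malat1 intermediate RNA. The cause of the changes that follow was not tested.

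With 20 principal components, a minimum of 500 genes and resolution 0.4 in that order, spindle/root Atp2b1 was -0.17, -0.25 and -0.30, spindle/root Itpr2 -1.03, -1.06 and -0.84, and marginal Atp2a2 0.16, 0.22 and 0.11, none called. Marginal Atp2a2 was also 0.19 without TMM, 0.072 without a filter and 0.0078 with the whole basal parent cluster, and marginal Atp2c1 0.052 with 20 components and 0.085 with 500 genes. Basal Itpr1 was -0.0038 with doublets kept and -0.039 at resolution 0.4. In low-Malat1 marginal RNA, Atp2c1 was -0.068 with DESeq2, -0.013 and -0.029 at limits of 0.2% and 0.5%, -0.12 at a ratio of 2, -0.079 without barcodes named as another type and -0.38 to 0.28 with a capture left out, and Itpr1 was 0.72 with DESeq2 and 0.58 to 1.02 with a capture left out. In low-Malat1 intermediate RNA, Atp2b1 was -0.0074 in the lowest 25% by Malat1, -0.020 without TMM, -0.35 when thinned and -0.44 among unnamed barcodes, Itpr3 -0.019 in the lowest 25%, -0.044 without TMM and -0.22 among unnamed barcodes, Itpr2 -0.81 among named intermediate cells, and Atp2a2 -0.21 to 0.079 with a capture left out.

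Members called in basal cells numbered 1 with 500 genes and 5 with doublets kept, and in spindle/root cells 8 without a filter, 3 at resolution 0.4 and 3 to 6 with a capture left out. Members at least 2-fold higher in intermediate nuclei numbered 0 with 20 components or resolution 0.4 and 3 with doublets or mitochondrial genes kept. With mitochondrial genes kept, 2 were higher in marginal nuclei and 0 lower in intermediate nuclei. With a capture left out, 0 to 1 were lower in basal and in marginal nuclei. The genes tested and called also moved with the setting, such as 3669 tested without capture 2 in place of 4923 for marginal cells. The shares over all genes at each setting are not set beside these counts. The counts therefore describe the settings and are not read as a result about the members. The Itpr2 share in marginal cells was 20.6% at resolution 0.4, 20.2% at 1.2, 20.4% with 20 components, 19.9% with doublets kept and 20.3% with 500 genes, and in spindle/root cells 9.72% at 0.4 and 12.2% with 20 components or 500 genes.

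Over all genes, calls in marginal, intermediate, basal and spindle/root cells numbered 1657, 2192, 1738 and 2106, and 898, 1345, 953 and 1299 without capture 2, with 1212 for spindle/root cells at resolution 0.4. In low-Malat1 marginal RNA they numbered 614, against 82 with DESeq2, 201 at a ratio of 5, 377 without a filter, 111 when thinned and 107 to 387 with a capture left out, and in intermediate RNA 2868, against 1281 with DESeq2, 1350 when thinned and 38 among named intermediate cells. Basal and spindle/root cells, at 38 and 59, limit the precision of their levels.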

Other observations

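Itpr1 also led clusters of cells that no marker rule named. It was not among the genes used to cluster them, and the clusters were picked after their values were seen. A cluster of 521 barcodes held Itpr1 at 1556, 1410 and 1535 CPM in the 3 captures, with Itpr2 at 244 CPM, Atp2b1 at 380 CPM and Kcne1 at 1233 CPM. These barcodes had a median Malat1 share of 0.0343%, a median mitochondrial share of 50.8% and a median of 1723 non-mitochondrial UMIs. A cluster of 176 barcodes held Itpr1 at 920, 917 and 1022 CPM, with Atp2c1 at 292 CPM, Atp2a2 at 199 CPM and Kcne1 at 588 CPM, at a median Malat1 share of 3.01% and a median depth of 6082.5 UMIs.

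In barcodes of neither RNA class, Itpr1 stood at 1129, 1005 and 332 CPM where Malat1 was low. It stood at 499, 697 and 535 CPM in the other class, so capture 3 went against the rest. This group also takes barcodes whose marginal and intermediate marker levels lay within 3-fold of each other. Its low barcodes had median marker levels of 18.7% of marginal cells and 21.9% of intermediate cells. Erythroid cells numbered 14 in capture 2 and 86 in capture 3 and held Itpr1 at 9.47 CPM. Their part in these values was not tested. B cell-like nuclei held Itpr2 at 280 CPM, and Reissner's membrane-like nuclei held Itpr1 at 1601 CPM.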
